A study of Mus musculus with 16 samples.

Results

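Heat shock proteins were read as 10 genes chosen by name (Hspb1, Hspa1a, Hspa1b, Hsph1, Hsp90aa1, Dnajb1, Hspa8, Hsp90ab1, Hspd1 and Hspe1) from the 55754 gene identifiers listed in the count files. The rule used gene symbols and no measured value, but the choice was made with earlier results of these data known. The RNA came from double-positive (DP) thymocytes, the CD4 and CD8 expressing stage of T cell development, collected live from mouse thymus and sequenced in bulk. The 16 libraries fall into 5 groups. With an age stated there were 4 libraries from old WT mice, 3 from young METTL3 KO mice and 3 from young WT mice. With no age stated there were 3 from METTL3 KO mice and 3 from WT mice. METTL3 is the catalytic subunit of the enzyme that places N6-methyladenosine on RNA. The labels state no strain, sex or age in weeks, do not say how or in which cells Mettl3 was deleted, and do not say whether replicates are separate animals, so the p-values measure the spread between these libraries.

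Heat shock proteins are chaperones: they hold unfolded proteins, refold them with ATP or pass them on for degradation. The transcription factor HSF1 raises many of their genes within minutes of heat or other protein damage, through repeated GAA units in the promoter called heat shock elements. Some members, such as Hspa8 and Hsp90ab1, are also made at high level in unstressed cells. Cell sorting and tissue dissociation can themselves switch on the inducible members, which is why they are often read as a sign of handling in sorted thymocytes.

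A RefSeq promoter window (GRCm38.p6) was matched for 7 of the 10 genes, and the 250 bases before the start site were searched on both strands for the paired units GAANNTTC and TTCNNGAA, each its own reverse complement. The stretches below, written 5′ to 3′ on the gene's strand, carry the matches in capitals and are shown because they set Hspb1, Hspd1 and Hspe1, whose KO and WT levels are compared further on, beside the inducible HSP70 genes.
Hspb1: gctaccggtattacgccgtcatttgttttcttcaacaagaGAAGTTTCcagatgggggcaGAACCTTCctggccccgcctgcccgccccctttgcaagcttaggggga
Hspe1: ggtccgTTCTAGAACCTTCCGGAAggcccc
Hspd1: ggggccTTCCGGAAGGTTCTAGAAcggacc
Hspa1b: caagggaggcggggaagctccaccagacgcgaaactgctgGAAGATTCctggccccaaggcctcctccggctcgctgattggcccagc
Hspa1a: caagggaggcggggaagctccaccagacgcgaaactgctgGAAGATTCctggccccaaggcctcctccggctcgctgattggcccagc
Hsph1: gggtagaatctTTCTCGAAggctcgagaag
The Hspb1 stretch (chr5:135887762-135887869, plus strand) holds 2 matches, which start 117 and 97 bases before the start site. Hspe1 and Hspd1 lie head to head and share 1 stretch (chr1:55088053-55088082), read on the plus strand for Hspe1 and on the minus strand for Hspd1, with 3 overlapping matches; the stretch overlaps an annotated exon of a member. A second RefSeq window of Hspd1 (chr1:55088244-55088493), for another start site, holds no match. The printed stretches of Hspa1b (chr17:34959295-34959382) and Hspa1a (chr17:34972213-34972300), both on the minus strand, are the same letters, with 1 match, and the full windows agree at 247 of 250 bases. Hsph1 (chr5:149636351-149636380, minus strand) holds 1 match, and the Dnajb1 window holds no match to these letters. Over 32851 windows of 27025 genes, 12.8% held at least 1 match (6.69% for GAANNTTC and 7.17% for TTCNNGAA) and 1.46% held 2 or more starts. A match is a description of letters and says nothing about binding.

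All coordinates are on mm10 with the GENCODE M21 annotation, and each gene is protein coding. Among the inducible members, Hspb1 (ENSMUSG00000004951, a small heat shock protein that holds unfolded proteins without ATP) lies at chr5:135887919-135889563, Hsph1 (ENSMUSG00000029657, an HSP110 that recharges HSP70) at chr5:149614287-149636376, and Hsp90aa1 (ENSMUSG00000021270, the inducible cytosolic HSP90) at chr12:110690605-110702728. Dnajb1 (ENSMUSG00000005483, an HSP40 that brings clients to HSP70) lies at chr8:83608193-83612653. Hspa1a (ENSMUSG00000091971) at chr17:34969190-34972156 and Hspa1b (ENSMUSG00000090877) at chr17:34956436-34959238 are the intronless genes of inducible HSP70, and their transcripts are 99.2% identical over 2201 bases, so the split of reads between them is uncertain. The constitutive members are Hspa8 (ENSMUSG00000015656, the cognate HSP70 HSC70) at chr9:40800984-40810087 and Hsp90ab1 (ENSMUSG00000023944, the constitutive HSP90) at chr17:45567775-45573271. The mitochondrial pair, Hspd1 (ENSMUSG00000025980, HSP60) at chr1:55077835-55088243 and Hspe1 (ENSMUSG00000073676, its HSP10 lid) at chr1:55088132-55091307, share 112 exonic bases on opposite strands, so their counts are uncertain by the reads in that stretch. Copies of at least 95% identity cover 74% of the Hspa1a transcript and 78.5% of that of Hspa1b. They cover 64.8% of the Hspa8 transcript, 68.7% of Hsp90aa1, 71.1% of Hspd1, 51.8% of Hspb1 and 21.6% of Hspe1. Reads of all these genes could be split or dropped. Hspa1a also shares 564 exonic bases with Gm20481 on the opposite strand. None was found for Hsph1, Dnajb1 or Hsp90ab1.

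Gene counts summed to 9781368 to 10307780 per library with an age; without one they came to 10575795 to 13740694 in KO and 15927134 to 16167074 in WT. Cd4 was at 845 CPM or more and Cd8a at 2144 CPM or more in every library (CPM, read counts relative to the TMM-scaled library total). The wider list of 17 DP markers was not even across groups: in KO without an age 9 were called lower and 1 higher than in WT. Mettl3, the check of the genotype, did not differ between the libraries labelled young KO (63.7 ± 1.33 CPM) and young WT (63.8 ± 3.66 CPM, SD, n = 3 each; log2 difference 0.00 ± 0.08 SE, edgeR adjusted p = 1), so the young KO label was not borne out at gene level. Without an age it was 32.7 ± 5.82 CPM in KO and 48.9 ± 4.96 CPM in WT (-0.58 ± 0.18, adjusted p = 0.0189). Marker genes of other cells set 1 library apart: old WT replicate 3 had summed CPM of 2161 for 14 B cell genes (Cd79a 27.1), 1027 for 12 dendritic and MHC class II genes, 293 for 14 myeloid genes and 870 for 14 genes of mature thymocytes, against 492 to 1019, 71.8 to 154, 54.1 to 77.9 and 438 to 510 in the other old WT libraries. Young WT had 443 to 498, 60.0 to 95, 50.6 to 58.5 and 439 to 456 for the same lists, so B cell genes were above young WT in old WT replicates 1 and 2 as well (722 and 1019). Reads not aligned uniquely made up 9.18% of entries in old WT replicate 3, against 4.46% to 5.36% in the other libraries with an age. Their part in the levels of the members was not tested. Old WT differences are given with and without replicate 3. In bulk RNA, more cells of a type and more RNA per cell cannot be told apart.

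Levels of the members spanned several orders of magnitude in these cells. Per kilobase of exon, young WT averaged 515 ± 44.8 CPM for Hsp90ab1, 474 ± 66.0 for Hspa8 and 188 ± 31.1 for Hsp90aa1 (SD, n = 3). Next came Hspd1 at 81.9 ± 5.996, Dnajb1 at 66.1 ± 5.05, Hspe1 at 34.5 ± 6.72 and Hsph1 at 19.1 ± 4.93 CPM per kilobase. The inducible HSP70 genes were near the detection limit, Hspa1b at 0.308 ± 0.111 and Hspa1a at 0.145 ± 0.0165 CPM per kilobase, and Hspb1 had 2 counts in all 3 young WT libraries together. Neighbours in this order differed by more than their SDs except Hsp90ab1 and Hspa8. The constitutive pair thus led, and the inducible Hspa1a, Hspa1b and Hspb1 stood at the foot. Reads dropped for near-identical copies could lower the counts of members that have them, Hspa1a, Hspa1b and Hspa8 among them. The part of such reads in this order was not tested.

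**Figure D1:**
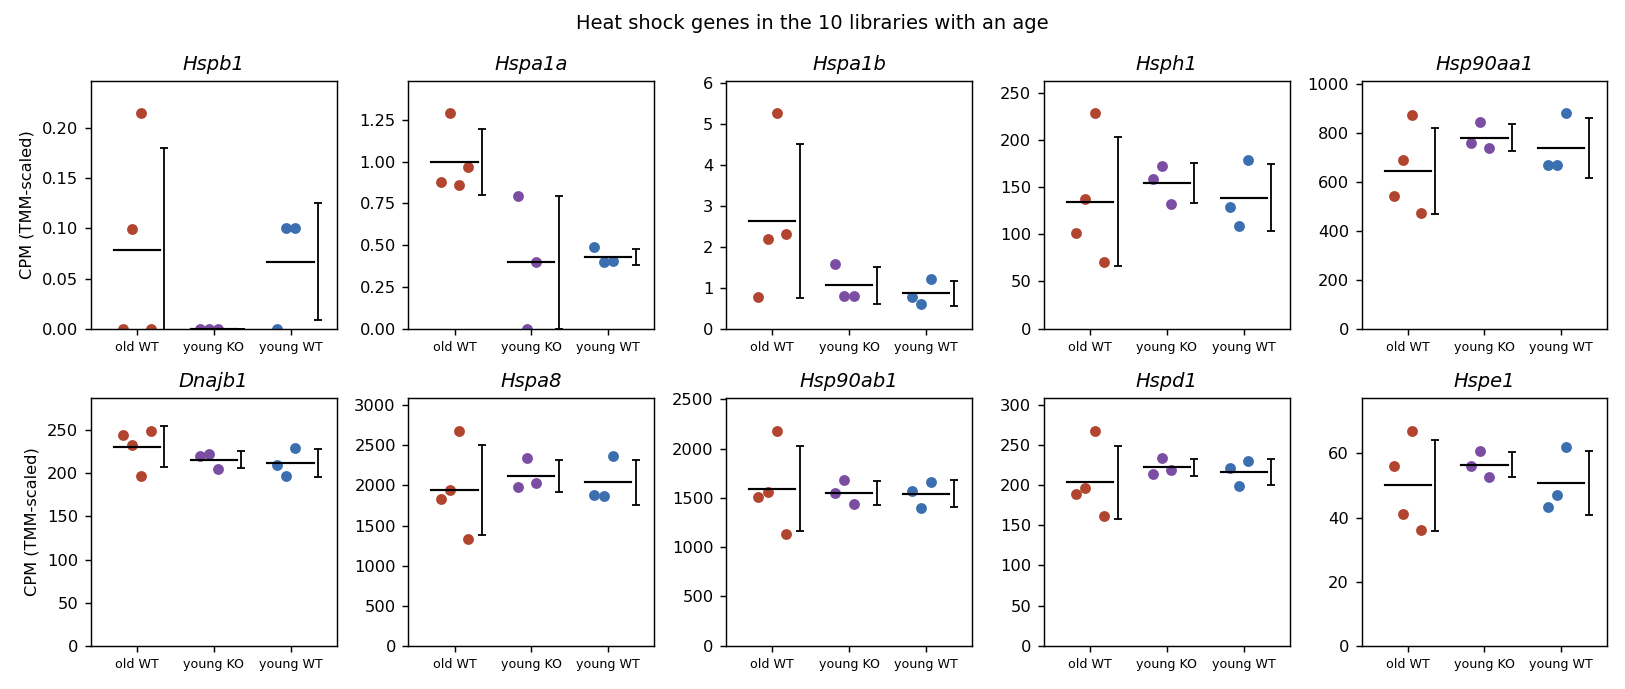
Level of the 10 heat shock genes (vertical axis, CPM, from 0) in each library of old WT (4), young KO (3) and young WT (3). Points are libraries, lines are means and bars are SDs (cut at 0); the spread of old WT is the widest of the groups for the abundant genes, for example 70.3 to 228 CPM for Hsph1.

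Old and young WT libraries were compared to ask what ageing does to these cells. No member rose or fell with age by the test: 0 of 8 tested members were called at an adjusted p under 0.05 (edgeR quasi-likelihood, Benjamini-Hochberg over 14228 genes), where 0.253% of all genes were called. With all libraries only Hspa1b had an unadjusted p under 0.05, a level that 12.1% of all genes met, and by DESeq2 too no member was called. Without old WT replicate 3 the unadjusted edgeR p was 0.0210 for Hspd1, 0.0219 for Hsp90aa1, 0.0359 for Dnajb1 and 0.0455 for Hspa1b. None of them was called there either. The median log2 difference of the tested members was -0.04, beside 0.01 over all genes. Hspb1 and Hspa1a stayed under the filter on low counts and were not tested.

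Inducible HSP70 had the widest difference with age among the tested members, at low counts, and it was not called. Hspa1b had 8, 22, 49 and 24 counts in the old WT libraries, against 8, 6 and 12 in young WT. Replicate 1 of old WT lay within the young range and replicates 2, 3 and 4 above it, with the highest count in replicate 3. The means were 2.64 ± 1.89 CPM in old WT (n = 4) and 0.863 ± 0.312 CPM in young WT (n = 3). The log2 difference was 1.59 ± 0.56 (edgeR adjusted p = 0.322). Without old WT replicate 3 it was 1.02 ± 0.46 (adjusted p = 0.449). Hspa1a had 9, 13, 8 and 10 counts in old WT, against 5, 4 and 4 in young WT, at counts too low for the test. Its groups did not overlap, as was so for 9.78% of the genes tested. Over summed counts its share was 2.31 times as high in old WT (exact 95% interval of 1.21 to 4.71, counting error only), and 2.45 times without old WT replicate 3. Counted as 1 gene, since their reads cannot be cleanly separated, the pair differed by 1.48 ± 0.46 (adjusted p = 0.281), and by 1.11 ± 0.41 without old WT replicate 3 (adjusted p = 0.346).

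The other inducible members showed no common direction with age. Hsph1 had 101, 138, 228 and 70.3 CPM in old WT, against 129, 109 and 179 CPM in young WT. Old WT held both the highest and the lowest library of the whole set, so the groups overlapped throughout (-0.05 ± 0.36, adjusted p = 0.968). Hsp90aa1 averaged 644 ± 176 CPM in old WT and 738 ± 122 CPM in young WT (-0.20 ± 0.18, adjusted p = 0.687). Dnajb1 averaged 231 ± 24.0 CPM in old WT and 212 ± 16.2 CPM in young WT (0.12 ± 0.10, adjusted p = 0.626), with a 95% interval of -0.09 to 0.33. Hspb1 had 3 counts over 4 old WT libraries and 2 over 3 young WT libraries, at or under the 3 counts taken as the floor.

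With all libraries, the fitted age differences of the constitutive and mitochondrial members lay between -0.09 and 0.05, and none was called. Without old WT replicate 3 each of them was lower in old WT, and again none was called. Hspa8 was then at -0.26 ± 0.14, Hsp90ab1 at -0.14 ± 0.12, Hspd1 at -0.25 ± 0.09 and Hspe1 at -0.19 ± 0.16. The values that follow are with all libraries. Hspa8 had 1827, 1945, 2686 and 1328 CPM in old WT, against 1878, 1870 and 2365 CPM in young WT (-0.07 ± 0.19, adjusted p = 0.910). Hsp90ab1 averaged 1595 ± 434 CPM in old WT and 1544 ± 134 CPM in young WT (0.05 ± 0.17, adjusted p = 0.934). The 95% intervals were -0.48 to 0.34 for Hspa8 and -0.33 to 0.42 for Hsp90ab1. Hspd1 averaged 204 ± 45.4 CPM in old WT and 216 ± 15.8 CPM in young WT (-0.09 ± 0.14, adjusted p = 0.822). Hspe1 averaged 50.1 ± 14.2 CPM in old WT and 50.8 ± 9.91 CPM in young WT (-0.02 ± 0.19, adjusted p = 0.971).

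Old WT had the highest coefficient of variation of the 3 groups for each of the 8 tested members, and most deviated together. The spread itself was not tested. Old WT replicates also differed most over genes in general, so the wide spread is not particular to the members. The chi-square per gene between replicates was 13.5 to 72.5 in old WT, 3.2 to 10.2 in young WT and 3.36 to 6.04 in young KO. Replicate 3 was the highest old library for 7 of the 8 tested members and replicate 4 the lowest for 6. Dnajb1 ran the other way, lowest of all 10 libraries in replicate 3 (196 CPM) and highest in replicate 4 (249 CPM). The coefficient of variation of Hsph1 was 50.9% in old WT, against 13.5% in young KO and 25.7% in young WT, and that of Hsp90ab1 was 27.2%, 7.86% and 8.70% in the same groups. Leaving out replicate 3 put Hspa8 at -0.26 ± 0.14, Hsp90aa1 at -0.37 ± 0.14, Hspd1 at -0.25 ± 0.09, Dnajb1 at 0.20 ± 0.08, Hsph1 at -0.43 ± 0.24 and Hspe1 at -0.19 ± 0.16 (adjusted p from 0.373 to 0.691), and leaving out replicate 4 put Hspa8 at 0.07 ± 0.15. The sign turned without replicate 3 for Hsp90ab1 (-0.14 ± 0.12), and without replicate 4 for Hsph1 (0.15 ± 0.31) and Hspe1 (0.09 ± 0.17) as well as Hspa8. Other single libraries turned it too: young WT replicate 3 for Hspa8 (0.05), Hsph1 (0.17) and Hspe1 (0.14), young WT replicate 2 for Hsp90ab1 (-0.02), old WT replicate 1 for Hsph1 (0.06) and old WT replicate 2 for Hspe1 (0.06). The part of the B cell, dendritic and myeloid transcripts of replicate 3 in these levels was not tested.

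**Figure D2:**
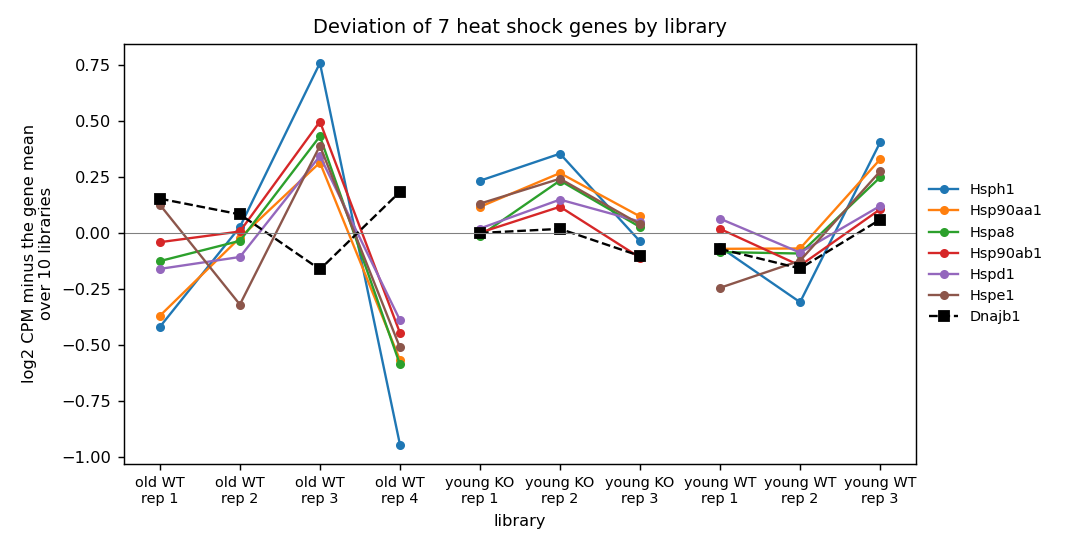
Deviation of 7 heat shock genes from their own mean (vertical axis, log2 CPM minus the mean over the 10 libraries) in each library of old WT, young KO and young WT. Among old WT libraries the coloured lines (6 genes) are highest in replicate 3 and lowest in replicate 4, and the black dashed line, Dnajb1, is the reverse.

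In young KO against young WT, no member passed the test. Of 8 tested members 0 were called, where 0% of all 14228 genes were called (88 genes had an unadjusted p under 0.05, none of them a member), and DESeq2 called 0 members. All 8 differences were above 0, from 0.01 for Hsp90ab1 to 0.29 for Hspa1b, each with an adjusted p of 1. Hspa8 had 1975, 2342 and 2030 CPM in young KO, against 1878, 1870 and 2365 CPM in young WT (0.05 ± 0.20). Hsph1 had 159, 173 and 132 CPM in young KO, against 129, 109 and 179 CPM in young WT (0.15 ± 0.39). For both genes all KO libraries lay inside the WT range. Hsp90aa1 averaged 780 ± 55.7 CPM in young KO and 738 ± 122 CPM in young WT. Dnajb1 averaged 216 ± 9.60 CPM in young KO and 212 ± 16.2 CPM in young WT. Hspd1 averaged 222 ± 10.5 CPM in young KO and 216 ± 15.8 CPM in young WT. Hspe1 averaged 56.5 ± 3.99 CPM in young KO and 50.8 ± 9.91 CPM in young WT (0.15 ± 0.21). The groups overlapped for every tested member, where 9.26% of all genes had groups that did not overlap. Hspb1 had 0 counts in all 3 young KO libraries, and Hspa1a had 8, 0 and 4 counts there, against 5, 4 and 4 in young WT. The 95% intervals still allowed differences of up to 0.49 for Hspa8 and 0.60 for Hspe1 on the log2 scale. This comparison and that of age share the young WT libraries, and Mettl3 itself was at the same level in both groups within 0.19 on the log2 scale (95% interval).

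**Figure D3:**
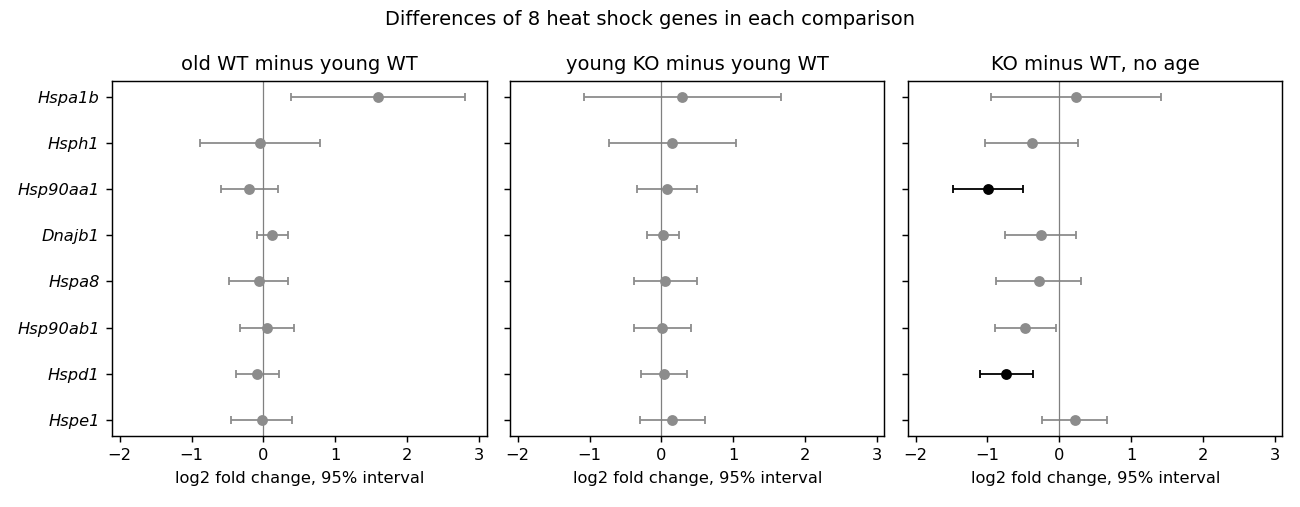
Log2 fold change of 8 heat shock genes (horizontal axis, points with 95% intervals) in old WT minus young WT, young KO minus young WT, and KO minus WT without an age. Black points passed an adjusted p of 0.05, which were Hsp90aa1 (-0.99) and Hspd1 (-0.74) in the last panel; Hspb1 (6.38 there) lies outside the axis and is not drawn.

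Among libraries without an age, Hspb1 rose and Hsp90aa1 and Hspd1 fell in KO relative to WT. These 3 of 9 tested members (33.3%) were called (edgeR quasi-likelihood, Benjamini-Hochberg over 16432 genes), which is below the 53.9% of all genes called in this comparison. Higher calls made up 29.9% of all genes and lower calls 24%. The median difference of the tested members was -0.29, beside 0.08 over all genes, whose quartiles were -0.61 and 1.09. In an offset fit for exon length and GC content (an alternative added after the data were seen) the split of all calls moved to 5550 higher and 2783 lower, beside 4919 and 3945 in the fit reported here. Without a filter on low counts the median over all genes was 0.53.

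Hspb1 was nearly silent in WT and detected in every KO library. It had 60, 62 and 105 counts in KO, against 2, 1 and 0 counts in WT. All 3 KO libraries stood above all 3 WT libraries, at 6.11 ± 1.60 CPM in KO and 0.0647 ± 0.0653 CPM in WT (n = 3 each). The share of reads was 101 times as high in KO, with an exact 95% interval of 34.2 to 494 that covers counting error only, and the fitted log2 difference was 6.38 ± 0.65 (adjusted p = 7.07e-05). It passed the filter only through its KO libraries, so the filter all but set the call: of 360 tested genes with at most 3 counts over the WT libraries, 360 were called higher, and 75 had a fitted difference at least as large. Of all 32842 genes that low in WT, 4 had at least 60 counts in each KO library. Both limits are the values of Hspb1 itself, so it is among the 4 by construction and that count adds no support. The KO levels of Hspb1 and Hsph1, 5.92 ± 1.55 and 6.85 ± 2.98 CPM per kilobase, lay within each other's SD.

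The other inducible members did not move with Hspb1. Hsp90aa1 had 182, 317 and 251 CPM in KO, against 481, 396 and 615 CPM in WT. Every KO library was below every WT library, at 2207 to 3617 counts in KO and 6219 to 9443 counts in WT, and the log2 difference was -0.99 ± 0.22 (1.99-fold lower, adjusted p = 0.00314). With the offset for length and GC it was -0.57 (adjusted p = 0.0312). Hsph1 had 37.8, 36.7 and 74.7 CPM in KO, against 83.3, 43.5 and 68.2 CPM in WT (-0.38 ± 0.30, adjusted p = 0.294). Dnajb1 had 131, 264 and 242 CPM in KO, against 250, 255 and 257 CPM in WT, where it was almost flat (-0.26 ± 0.22, adjusted p = 0.352). Hspa1b had 9, 29 and 40 counts in KO, against 28, 25 and 30 in WT (0.23 ± 0.54, adjusted p = 0.737). Hspa1a had 0, 13 and 6 counts in KO, against 6, 6 and 2 in WT, and was not tested.

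The constitutive members had lower means in KO and did not pass the test. Hsp90ab1 had 628, 1070 and 902 CPM in KO, against 1234, 1164 and 1212 CPM in WT. No KO library reached the lowest WT library, and the log2 difference was -0.47 ± 0.19 with an adjusted p of 0.0584, just outside the threshold; DESeq2 gave an adjusted p of 0.0477 and the offset for length and GC 0.0481. Hspa8 had 827, 1082 and 1785 CPM in KO, against 1641, 1132 and 1743 CPM in WT, and the groups overlapped (-0.29 ± 0.27, adjusted p = 0.381). KO replicate 3 decided several of these calls. Without it 6 of 9 members were called, with Hspa8 at -0.72 ± 0.19 (adjusted p = 0.00673), Hsph1 at -0.87 ± 0.23 (adjusted p = 0.00646) and Hsp90ab1 at -0.57 ± 0.19 (adjusted p = 0.0256) added. Without KO replicate 2, Hsp90ab1 was called too (-0.74 ± 0.18, adjusted p = 0.00631). With the offset for length and GC the sign turned for Hspa8 (0.09 ± 0.27) and Hsph1 (0.20 ± 0.35).

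The mitochondrial chaperonin genes parted. Hspd1 had 90.2, 68.6 and 95.3 CPM in KO, against 155, 137 and 131 CPM in WT. The groups did not overlap, and the log2 difference was -0.74 ± 0.17 (1.67-fold lower, adjusted p = 0.00332). Its partner Hspe1 had 46.2, 39.5 and 65.2 CPM in KO, against 47.4, 45.4 and 37.4 CPM in WT (0.21 ± 0.21, adjusted p = 0.406), with a 95% interval of -0.24 to 0.66. The ratio of Hspd1 to Hspe1 counts was therefore 1.72 ± 0.247 in KO (1.46 to 1.95) and 3.27 ± 0.247 in WT (3.02 to 3.51). The exact two-sided permutation p was 0.1, the smallest that 3 against 3 allows (0.457 adjusted over 12 ratio comparisons, chosen after the values were seen). With an age the same ratio was 4.15 ± 0.610 in old WT, 3.94 ± 0.183 in young KO and 4.34 ± 0.706 in young WT. The ratio of Hsp90aa1 to Hsp90ab1 was 0.288 ± 0.00918 in KO and 0.412 ± 0.0861 in WT (exact p = 0.1), and with an age 0.405 ± 0.0349 in old WT, 0.502 ± 0.0119 in young KO and 0.477 ± 0.0513 in young WT. Set beside each other, 4 of 9 tested members had groups that did not overlap (Hspb1, Hsp90aa1, Hsp90ab1 and Hspd1), where 63.8% of all genes had such groups.

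**Figure D4:**
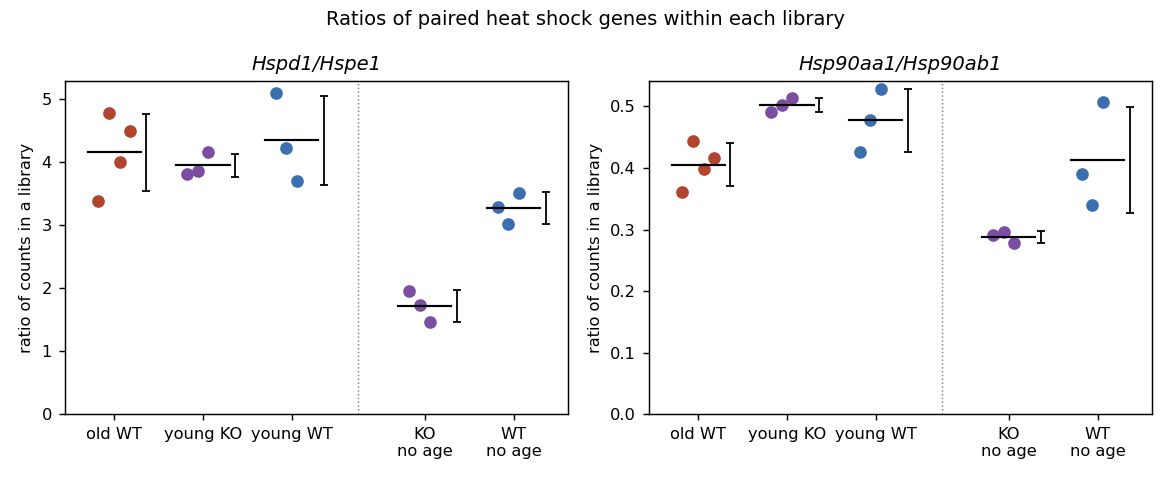
Ratio of read counts of Hspd1 to Hspe1 (left) and of Hsp90aa1 to Hsp90ab1 (right) within each library (vertical axes, from 0), for old WT, young KO and young WT and, right of the dotted line, KO and WT without an age. Points are libraries, lines are means and bars are SDs; the 3 KO libraries without an age lie at 1.46 to 1.95 on the left, below the 3.02 to 3.51 of their WT libraries.

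Several measures moved with genotype in this set beside the members. Reads outside genes made up 11.8% to 15% of entries in KO and 7.23% to 7.6% in WT. Among genes of at least 5 CPM the median difference went with exon length, at 0.14, -0.11, -0.28 and -0.54 in 4 equal groups of genes from shortest to longest; Hspb1 and Hspe1 are the shortest members, with 1031 and 1474 exonic bases. The 17 DP markers summed to 18499 to 22907 CPM in KO and 28751 to 30615 CPM in WT, the B cell markers to 752 to 1175 CPM in KO and 537 to 637 CPM in WT, and the dendritic and MHC class II markers to 139 to 254 CPM in KO and 53.8 to 86.8 CPM in WT. Xist, which marks female cells, was at 1513, 1120 and 0.151 CPM in KO, and at 0.327, 0.127 and 0.0651 CPM in WT. In the KO library of this set without Xist, Hsp90aa1 was at 251 CPM, Hspd1 at 95.3 CPM and Hspb1 at 7.94 CPM. Libraries with an age were mixed in Xist too. It was at 1171, 2200, 8.06 and 0.290 CPM in old WT, 0.397, 0.889 and 2741 CPM in young KO, and 1916, 0 and 0.201 CPM in young WT. The part of sex in the age and young KO comparisons was not tested. With the offset for length and GC Hspd1 was at -0.60 and Hsp90aa1 at -0.57, each still called. Hspb1 was at 5.65 and called, a call that the filter all but set. The part of the other measures in the results was not tested.

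**Figure D5:**
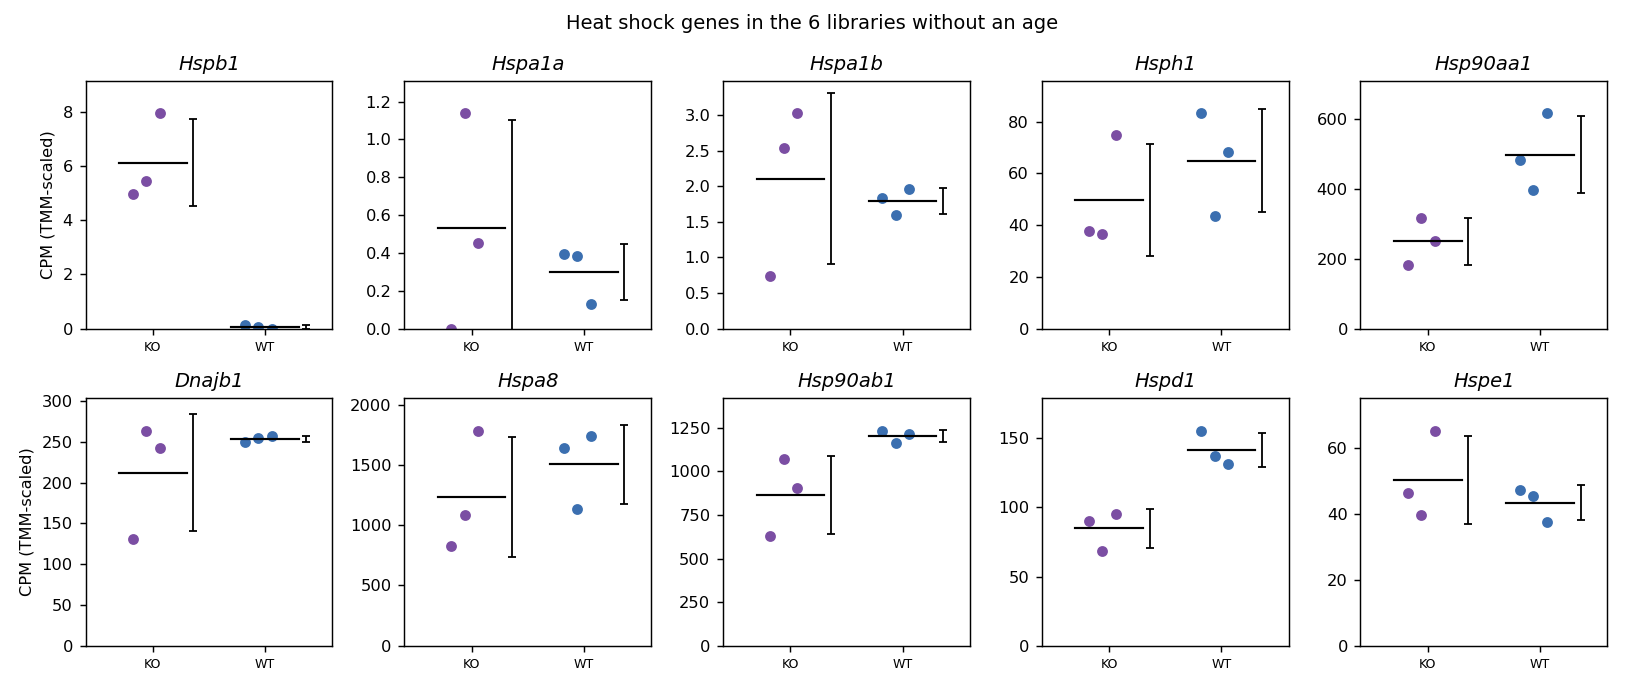
Level of the 10 heat shock genes (vertical axis, CPM, from 0) in each KO (3) and WT (3) library without an age. Points are libraries, lines are means and bars are SDs (cut at 0); KO and WT do not overlap for Hspb1 (higher in KO) and for Hsp90aa1, Hsp90ab1 and Hspd1 (lower in KO).

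A fit of 12 libraries tested whether the KO difference without an age was unequal to that in the young set. The same 3 members were called, where 36.9% of 16557 genes were. The gap was -0.90 ± 0.27 for Hsp90aa1 (adjusted p = 0.0162, and 0.0696 with the offset for length and GC) and -0.61 ± 0.17 for Hspd1 (adjusted p = 0.0111). For Hspb1 the adjusted p was 0.00504, but with 0 to 1 counts in each young library its fitted gap of 9.40 is not a measured fold. The other 6 tested members had adjusted p from 0.275 to 0.959.

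The pathway around the members was read from lists chosen with earlier results of these data known. Among regulators, Hsf1, the master factor of the heat shock response, rose in KO without an age, at 110, 111 and 149 CPM in KO against 81.6, 87.2 and 84.2 CPM in WT (0.55 ± 0.16, adjusted p = 0.0139). Hsf2 fell (27.8 ± 2.93 CPM in KO, 42.7 ± 11.2 CPM in WT, -0.62 ± 0.21, adjusted p = 0.0268). Hsf2bp, which binds HSF2 and acts in meiosis, had 24, 16 and 26 counts in KO and 1, 0 and 0 counts in WT, and was called higher; like Hspb1 it passed the filter only through its KO libraries, so the filter all but set this call too. In old against young WT, Hsf1 was at 57.3 ± 14.1 CPM in old WT and 52.5 ± 5.95 CPM in young WT (0.13 ± 0.16, adjusted p = 0.781; 0.02 ± 0.15 without old WT replicate 3). Of the 7 regulators 4 were tested there and 0 called.

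Of the chaperones that work with HSP70, more fell than rose in KO without an age. Of 11 other HSP70 family genes 6 fell and 0 rose. They included Hspa4l, an HSP110 relative (54.3 ± 10.2 CPM in KO, 121 ± 16.6 CPM in WT, -1.16 ± 0.18, adjusted p = 0.000431), and Hspa13, a microsomal HSP70 (9.35 ± 2.63 CPM in KO, 23.9 ± 2.26 CPM in WT, -1.35 ± 0.24). Of 37 tested J proteins, the HSP40 family that feeds HSP70, 16 fell and 3 rose, with Dnajc13 at -1.49 ± 0.18 and Dnaja2 at -0.85 ± 0.15. Nucleotide exchange factors, which reset HSP70, had 2 of 10 lower (Bag4 -0.88 ± 0.23 and Bag5 -0.54 ± 0.17) and 0 higher. The small heat shock proteins other than Hspb1 had 3 tested and 0 called, and 5 of those 9 genes (Cryaa, Hspb2, Hspb3, Hspb7 and Hspb8) had 0 counts in every KO library. Beside these counts, 24% of all genes were lower and 29.9% higher. Among the 10205 genes of at least 5 CPM the balance was the other way, with 34.0% lower and 18.5% higher, and there 5 of 8 other HSP70 genes and 16 of 36 J proteins were lower, 0 and 3 higher.

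Partners of HSP90 and other folding machines were mixed in the same comparison. Of 26 HSP90 cochaperones 5 rose and 6 fell, among them Unc45a, a myosin and HSP90 cochaperone (283 ± 35.2 CPM in KO, 125 ± 11.6 CPM in WT, 1.17 ± 0.16), and Cdc37l1, a relative of the kinase cochaperone Cdc37 (-1.26 ± 0.17). The cytosolic chaperonin CCT and prefoldin had 2 of 15 higher (Pfdn5 0.99 ± 0.28 among them) and 4 lower (Vbp1 -0.78 ± 0.17 and Cct6a -0.62 ± 0.16 among them). Mitochondrial chaperones and proteases had 3 of 15 higher and 2 lower, with the protease subunit Clpp at 1.24 ± 0.20 and Hspa9, the mitochondrial HSP70, at -0.39 ± 0.14. Of 16 chaperones of the endoplasmic reticulum 1 rose and 5 fell, Canx (calnexin) with the smallest p (-0.94 ± 0.14). Of 27 other genes known as HSF1 targets 2 rose and 9 fell, with Chordc1 at -0.81 ± 0.17, Dnajb4 at -0.96 ± 0.23 and Cirbp at 0.99 ± 0.22. Immediate-early genes, which cell handling switches on, had 1 of 24 higher (Socs3 1.23 ± 0.20) and 5 lower (Btg2 -1.14 ± 0.15 and Klf6 -1.52 ± 0.29 among them). The KO libraries were not alike in them: the list summed to 1898, 5301 and 2006 CPM in KO, against 3374, 3995 and 3520 CPM in WT. KO replicate 2 thus lay above every WT library and KO replicates 1 and 3 below. Medians over the tested genes were -0.36 for immediate-early genes, -0.32 for HSF1 targets, -0.39 for HSP70 relatives and -0.26 for J proteins, beside 0.08 over all genes. Among genes of at least 5 CPM these medians were -0.29, -0.33, -0.43 and -0.35, beside -0.20 over all such genes. At that level 34.0% of all genes were lower and 18.5% higher. There 9 of 25 HSF1 targets, 5 of 16 chaperones of the endoplasmic reticulum, 6 of 25 HSP90 cochaperones and 5 of 23 immediate-early genes were lower.

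With age, 0 genes of these lists were called, and 0 in young KO. Unadjusted p under 0.05 was met with age by 12.1% of all genes (1716 of 14228), and by 8 of 23 immediate-early genes, 3 of 37 J proteins, 3 of 15 mitochondrial chaperones and proteases, 2 of 10 other HSP70 genes, 2 of 25 HSP90 cochaperones, 2 of 28 other HSF1 targets, and 1 each of the regulators, exchange factors and CCT and prefoldin genes. In young KO 1 J protein met it and no gene of the other chaperone and handling lists. Among the genes of these lists, the smallest adjusted p with age belonged to Bag3, an HSF1 target that links HSP70 to autophagy. It had 31, 32, 47 and 26 counts in old WT, against 11, 10 and 7 in young WT. All old libraries were above all young ones, at 3.44 ± 1.11 CPM in old WT and 0.926 ± 0.194 CPM in young WT (1.87 ± 0.40, adjusted p = 0.0997 by edgeR), and without old WT replicate 3 the difference was 1.64 ± 0.37. Dnajb13, a J protein of sperm flagella, was at 31.0 ± 3.30 CPM in old WT and 20.1 ± 3.46 CPM in young WT (0.62 ± 0.14, adjusted p = 0.114; 0.56 ± 0.13 without old WT replicate 3). Immediate-early genes had a median of 0.28, with 17 of 23 above 0, beside a median of 0.01 over all genes; Socs3 was at 0.71 ± 0.16 (adjusted p = 0.124; 0.70 ± 0.17 without old WT replicate 3). Without that library the median of immediate-early genes was 0.21, with 21 of 23 above 0. Markers of other cells also lay above 0: the medians were 2.79 for B cell genes (12 of 12 above 0), 2.06 for dendritic and MHC class II genes (9 of 9), 1.45 for myeloid genes (9 of 10) and 0.99 for mature thymocyte genes (14 of 14), with 0 called. Without replicate 3 they were 1.65, 0.33, 0.38 and 0.12. Their part in the values of immediate-early genes was not tested. Groups that do not overlap, as for Bag3 and Dnajb13, were found for 9.78% of all genes.

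The genes nearest to the inducible members in profile were looked for across all genes. The mean centred log2 profile of the 4 tested inducible members over the 10 libraries with an age was nearest to Xrcc2, Ica1l, Nagpa, Gimap5 and Slfn2, with root mean square differences of 0.150 to 0.153 on the log2 scale, where the median of 9303 candidates was 0.314. For the 5 inducible members tested over the 6 libraries without an age, the nearest of 9394 candidates were Armc6, Slc25a29, Ccdc181, Ing2 and Nrg2, at 0.118 to 0.142 with a median of 0.509. That mean profile includes Hspb1, which passed the filter only through KO and lay 1.99 from the abundant members. Of the abundant members, Hspa8 lay closest to the mean of the others with an age (0.0664) and Dnajb1 farthest (0.342). These are descriptions over few libraries.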

How the data were processed

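RNA-seq read counts per gene were analysed for 16 libraries of mouse DP thymocytes. The aligner was HISAT2 2.0.5 with mm10 as genome, per the submitters' processing notes. Which program counted reads, with what annotation and strand setting, is not given in the sources used here. What the authors deposited is 1 raw count per gene and library, with no normalization; files with an age list 55335 genes (55154 matched a symbol) and the others 54532 (54409 matched). Summary lines for reads outside genes (47.5% to 51.2% with an age, 7.23% to 15% without), ambiguous, low quality, not aligned (50.5% to 52.2% without an age) or not unique were left out of library sizes and tests. Because the sets differ so, levels were compared only within a set.

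Counts were tested with edgeR 4.0.16 (R 4.3.3; filterByExpr, TMM, robust quasi-likelihood, Benjamini-Hochberg, threshold 0.05, two-sided). The 10 libraries with an age shared 1 fit, the 6 without had another, and 12 libraries gave the interaction. Alternatives were library size alone, DESeq2 size factors, a filter of 1 CPM in 3 libraries or none, the DESeq2 1.42.0 test, the replicate number as a block, only the groups compared, Hspa1a and Hspa1b summed, each library left out and, added later, an offset for exon length and GC, the lists without old WT replicate 3 and counts among genes of at least 5 CPM. The procedure was tested on simulated data. The members and lists were chosen with earlier results of these data known. Named genes are the 10 members, up to 4 genes of smallest p per list and comparison, the 5 nearest profiles per set, Mettl3 and cell markers (Xist was chosen after its values were seen). Copies were found with BLAST 2.17.0; tables and figures used Python 3.11.15, pandas 2.3.3, scipy 1.17.1 and matplotlib 3.10.9. No replicate pair agreed within sampling noise (chi-square per gene at least 3.2). The exact intervals of summed counts and the floors cover counting error only. Intervals of fitted differences rest on the SE of the fit, so they include the spread between libraries. The floor of 3 counts amounted to 0.186 to 0.307 CPM.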

Additional observations from a re-analysis of the deposited data

Results flagged for a closer look

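The KO minus WT difference without an age was unequal to that in the young set for 3 heat shock genes by the interaction test in edgeR. The fitted gap between the differences was 9.40 for Hspb1 (adjusted p = 0.00504), which is no measured fold because the young libraries had 0 or 1 counts and the gene passed the filter only through KO without an age. It was -0.90 for Hsp90aa1 (adjusted p = 0.0162) and -0.61 for Hspd1 (adjusted p = 0.0111). In young KO against young WT these genes had 0 counts against 2 counts in all (Hspb1), a difference of 0.08 (Hsp90aa1) and 0.04 (Hspd1). The libraries labelled young KO showed no loss of Mettl3, though the test of its gap between the sets did not pass (-0.41 ± 0.19, edgeR adjusted p = 0.106), and the sets differ in age label and in read handling, so genotype, age and set cannot be told apart.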

How the results depend on the processing

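Counts of calls depended on the settings more than the calls of Hsp90aa1 and Hspd1 did. Hsp90aa1 and Hspd1 were called in KO without an age under all 14 alternatives, with ranges of -1.29 to -0.57 and -0.93 to -0.60. Hspb1 was called under all 14 too (5.65 to 7.16). It passed the filter only through its KO libraries, so its repeated call adds no support. The members called there numbered 7 with no filter on low counts, 4 by DESeq2, 4 with the offset for exon length and GC, and 3 to 6 with each library left out; Hsp90ab1 was called under 5 of the 14 alternatives. In the interaction they numbered 5 with no filter and 3 to 5 with each library left out, and 2 with the offset for exon length and GC, where Hsp90aa1 (-0.61, adjusted p = 0.0696) was lost. With age and in young KO, 0 members were called under any alternative. Over all genes, old against young WT gave 36 calls, 85 with no filter, 153 by DESeq2, 61 with the replicate block, 11 with only the groups compared and 8 to 59 with each library left out; young KO gave 1 call with no filter.

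Signs turned only for members that were not called in the fit reported here. Among them, Hspa8 and Hsph1 in KO without an age were each called lower under 2 of the 14 alternatives. With the replicate block the age difference was 0.070 for Hspa8, 0.13 for Hsph1 and 0.10 for Hspe1. Deviations of same-numbered libraries correlated at -0.45 to 0.234 with an age and -0.336 to -0.104 without. Other pairs gave -0.438 to 0.591 and -0.19 to 0.258. No pairing by number was seen, but deviations centred within such small groups cannot exclude it. The block changed the call of no member. With the offset for length and GC the age difference was -0.00016 for Hsp90ab1 and 0.021 for Hspe1, that of KO without an age was 0.088 for Hspa8, 0.20 for Hsph1 and -0.23 for Hspa1b, and the interaction was 0.065 for Hspa8, 0.057 for Hsph1 and -0.47 for Hspa1b. With no filter the interaction was -0.030 for Hspe1 and -0.15 for Hspa1b. With each library left out, the age difference ranged over -0.14 to 0.17 for Hsp90ab1, -0.26 to 0.067 for Hspa8, -0.43 to 0.17 for Hsph1 and -0.19 to 0.14 for Hspe1. The young KO difference ranged over -0.026 to 0.17 for Hspa8, -0.023 to 0.086 for Dnajb1, -0.057 to 0.066 for Hsp90ab1, -0.018 to 0.083 for Hspd1 and -0.12 to 0.61 for Hspa1b. KO without an age ranged over -0.19 to 0.61 for Hspa1b and -0.089 to 0.27 for Hspe1, and the interaction over -0.45 to 0.32 for Hspa1b and -0.19 to 0.24 for Hspe1. The cause of these turns was not tested. Depth limits Hspb1 and Hspa1a, which had at most 13 counts in each library with an age.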
